A study of Homo sapiens with 4 samples.

Results

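The 10 genes described here encode amino acid transporters: SLC7A11, SLC7A5, SLC3A2, SLC7A1, SLC1A4, SLC1A5, SLC38A1, SLC38A2, SLC6A9 and SLC7A3. They were taken as a fixed list of symbols, with no threshold on a measured value, but the list was drawn up with earlier results of these data known. All 10 were found among the 57820 gene rows of the count files, and 9 had enough counts to be tested between conditions. The exception was SLC7A3, with between 2 and 8 fragments per library.

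The libraries were made from SY5Y, a human neuroblastoma cell line that the labels give as MYCN wild type, and all 4 come from this single line. Cells were harvested 12 h after treatment with SGSS05-NS (2 libraries) or with the solvent DMSO (2 libraries), and the comparison asks which transcripts change with the compound. The labels give a dose of 3 μM, as do the study's descriptions of its expression results in this line, while its methods text gives a lower dose. The study names the compound SGSS05-NS3, a covalent inhibitor of the lysine methyltransferase SETD8. It also reports that SGSS05-NS3 inhibits other methyltransferases, among them G9a, GLP and MLL1, at higher but still low micromolar concentrations. Its discussion lists SGSS05-NS as a compound of the same series, and whether both names mean the same compound is not stated. The name and dose of the labels are used here. The methods describe the replicates as independent biological replicates.

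Between 21463105 and 25350204 fragments per library fell on genes. Fragments with no annotated exon on the strand counted were 12.3% to 12.4% of the total with DMSO and 15.3% to 16.1% with SGSS05-NS. This share includes fragments on the other strand of a gene, and its part in the results was not tested. The sympathoadrenal factors PHOX2A, HAND2, GATA3 and ISL1 and the granule genes DBH and CHGA had DMSO means of at least 166 CPM (counts scaled to library size, with TMM factors for differences in library composition). TH, another marker on that list, was close to absent, with at most 2 fragments per library. Of the markers of other cell types, PTPRC and CD3E had at most 1 fragment in any library, and EPCAM had a DMSO mean of 1.53 CPM. Of 9 such markers listed, 8 were matched, 3 were tested and 0 called by edgeR (1 higher and 1 lower at an unadjusted p under 0.05, 1 lower by the likelihood ratio test, and 0 by DESeq2 and limma voom), and summed over the list they gave 3.23 and 3.77 CPM with DMSO and 3.69 and 5.31 CPM with SGSS05-NS. All 7 neuroblastoma markers tested had negative log2 fold changes, as did 8064 of the 16468 genes tested. Of the 7, 5 passed the threshold (an adjusted p under 0.001). Of all genes tested, 14.5% passed it, 6.37% higher and 8.14% lower, and 46.3% passed an adjusted p under 0.05. The sum over the neuroblastoma markers was 2747 and 2960 CPM with DMSO and 1730 and 1521 CPM with SGSS05-NS. The part of these markers in the results was not tested, and in bulk RNA fewer cells of a type and less RNA per cell cannot be told apart. KMT5A, the gene of SETD8, was also higher with SGSS05-NS, at 82.9 ± 0.0952 CPM against 55.7 ± 1.53 CPM (mean ± SD of 2 libraries, as throughout), and its adjusted p of 0.00037 in edgeR became 0.0017 without DMSO replicate 1.

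Amino acid transporters of the plasma membrane are grouped by the amino acids they carry and by how transport is driven. SLC7A5 and SLC7A11 are light chains that reach the cell surface only when bound to the heavy chain SLC3A2 (CD98hc, 4F2hc). The SLC7A5 pair exchanges glutamine for leucine and other large neutral amino acids, and the SLC7A11 pair, system xc-, takes up cystine in exchange for glutamate and so feeds glutathione synthesis. Many of these genes are known targets of ATF4, the transcription factor of the integrated stress response, SLC7A11 is also a target of NRF2, and SLC7A5 and SLC1A5 are known targets of MYC proteins.

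With SGSS05-NS, 5 of the 9 transporter genes tested rose: SLC7A11 by 7.02-fold, SLC3A2 by 3.76-fold, SLC7A5 by 2.25-fold, and SLC1A5 and SLC1A4 by 0.58 and 0.57 on the log2 scale. None fell at an adjusted p under 0.001 in edgeR's quasi-likelihood test. At an adjusted p under 0.05, which 46.3% of all genes tested passed, 6 of the 9 were higher and 1 lower. At an unadjusted p under 0.05, 1 gene, SLC38A1, was lower, and the likelihood ratio test, DESeq2 and limma voom also gave 0 lower genes. Across all 16468 genes tested, 14.5% passed the threshold of 0.001, 6.37% higher and 8.14% lower. The median log2 fold change was 0.58 over the 9 transporter genes and 0.01 over all genes tested. Summed over the 10 genes, the level was 1189 and 1346 CPM in the DMSO libraries and 1681 and 1725 CPM in the SGSS05-NS libraries.

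**Figure D1:**
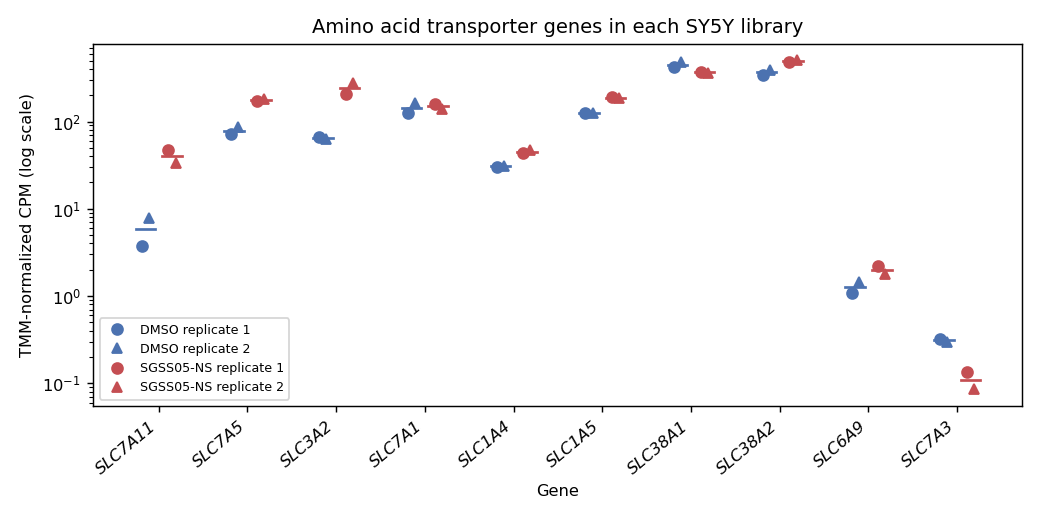
TMM-normalized CPM (log axis) of each transporter gene in the 4 libraries. Circles and triangles mark replicates 1 and 2, blue is DMSO, red is SGSS05-NS, and short lines are condition means. SLC7A11 shows the widest gap between conditions, while the points of SLC7A1 interleave.

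The promoters of the genes were read from RefSeq (GRCh38.p14) in windows of 300 bases, from 250 before to 50 after each annotated start, to show which letters known from stress-responsive promoters they hold. Windows were found for 8 of the 10 genes, 14 windows in all, since SLC1A5 and SLC3A2 have 3 each. SLC7A11 and SLC7A3 had no entry. The core of the C/EBP-ATF element, the site type through which ATF4 acts, was searched as TTNCATCA on both strands and was found in 5 of the 8 genes. By window it was found in 5 of the 14. It was present in 4.46% of all 27305 genes with a window and in 3.62% of all 35116 windows. The 5 sites follow on the strand of the gene, with the match or its reverse complement in capitals.
SLC1A4, chr2:64989381-64989410: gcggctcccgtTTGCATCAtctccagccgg
SLC3A2, chr11:62881719-62881748: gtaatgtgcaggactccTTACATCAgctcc
SLC1A5, chr19:46784893-46784922: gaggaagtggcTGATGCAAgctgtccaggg
SLC7A1, chr13:29595663-29595692: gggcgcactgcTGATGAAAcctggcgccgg
SLC38A1, chr12:46266502-46266531: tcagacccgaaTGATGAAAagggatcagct
SLC1A4 and SLC1A5 hold the same 8 letters on opposite strands. SLC7A1 and SLC38A1, which share another form of the match, were not among the genes that rose, and the SLC7A5 window holds no match.

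The antioxidant response element, through which NRF2 acts, was searched as TGACNNNGC on both strands and was found in 4 of the 8 genes, against 16.1% of all genes with a window. By window it was found in 4 of the 14, against 13.3% of all windows. The 2 sites in genes that rose more than 2-fold are shown with the match in capitals.
SLC3A2, chr11:62881652-62881681: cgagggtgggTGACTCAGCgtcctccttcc
SLC7A5, chr16:87869490-87869519: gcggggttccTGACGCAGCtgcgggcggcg
The other 2 genes with a match were SLC7A1 and SLC1A5. The E box CACGTG, a site type of MYC proteins that reads the same on both strands, was found in SLC7A5 and SLC1A5, against 8.77% of all genes with a window. By window it was found in 2 of the 14, against 7.26% of all windows. None of the matches of one motif overlapped a match of another. These letters describe the windows and were not tested against the counts.

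SLC7A11 (ENSG00000151012.9, chromosome 4 of GRCh37 from 139085251 to 139163503, minus strand), the cystine and glutamate exchanger, had the largest change of the 9 genes. Its fragments numbered 95 and 183 under DMSO and 1052 and 795 under the compound, which is 3.79 and 7.83 CPM against 47.4 and 33.8 CPM. Both treated libraries were above both DMSO libraries, an order that 37.8% of all genes tested show, and the DMSO libraries differed from each other by a larger ratio than those of any other of the 9 genes. Mean levels were 5.81 ± 2.86 CPM under DMSO and 40.6 ± 9.62 CPM under the compound. This rise is 2.81 on the log2 scale (95% interval 2.27 to 3.36, standard error 0.25), and its Benjamini-Hochberg adjusted p in edgeR was 5.4e-06. Among genes with a positive log2 fold change it had rank 133 by p-value. The call held with each library left out, but the size did not: the rise was 10.6-fold without DMSO replicate 2 and 5.14-fold without DMSO replicate 1.

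SLC3A2 (ENSG00000168003.12, chromosome 11 from 62623476 to 62656352, plus strand), the shared heavy chain, had the smallest p-value of the list and rank 65 among genes with a positive log2 fold change. Its libraries had 66.2 and 62.7 CPM with DMSO and 206 and 279 CPM with SGSS05-NS. The conditions were far apart, and the treated libraries were the more uneven pair. The rise was 1.91 on the log2 scale (95% interval 1.62 to 2.20, standard error 0.13), with an edgeR adjusted p of 7.6e-07.

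SLC7A5 (LAT1, ENSG00000103257.4, chromosome 16 from 87863629 to 87903113, minus strand) is the light chain that carries leucine and other large neutral amino acids. Its libraries had 71.8 and 85.5 CPM with DMSO and 173 and 182 CPM with SGSS05-NS, so that the lower treated library was about 2 times the higher DMSO library. The rise was 1.17 on the log2 scale (95% interval 0.94 to 1.40, standard error 0.11), with an edgeR adjusted p of 5.8e-06.

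**Figure D2:**
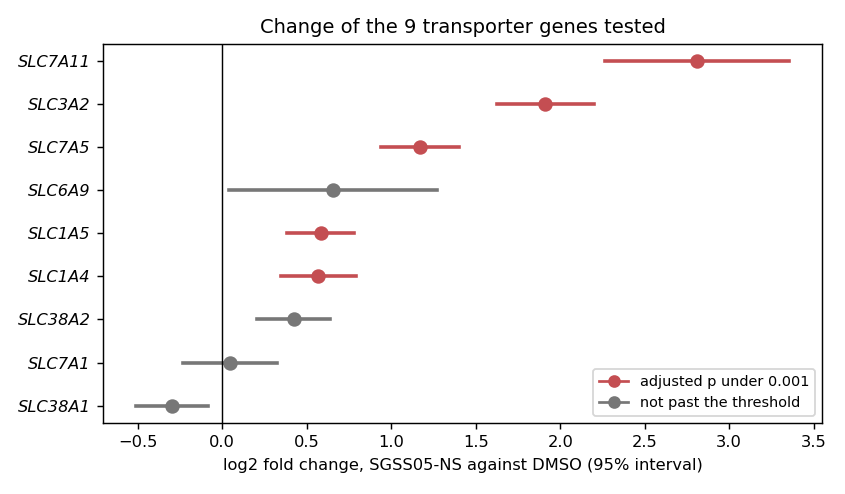
Log2 fold change of SGSS05-NS against DMSO (x axis) for the 9 transporter genes with enough counts, with 95% intervals from edgeR's quasi-likelihood fit. Red genes passed an adjusted p under 0.001. The intervals of SLC7A11, SLC3A2 and SLC7A5 lie above 0.9, and that of SLC7A1 spans 0.

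SLC1A5 (ASCT2, ENSG00000105281.8, chromosome 19 from 47278140 to 47291851, minus strand) and SLC1A4 (ASCT1, ENSG00000115902.6, chromosome 2 from 65215611 to 65250999, plus strand) are sodium-dependent exchangers of neutral amino acids, with glutamine and serine among their substrates. SLC1A5 had 126 and 125 CPM with DMSO and 192 and 184 CPM with SGSS05-NS. The replicates of each condition lay close together, and the rise was 0.58 on the log2 scale (95% interval 0.38 to 0.78, standard error 0.09, edgeR adjusted p = 0.00032). SLC1A4 had 29.7 and 31.3 CPM with DMSO and 43.7 and 46.9 CPM with SGSS05-NS, a rise of 0.57 on the log2 scale (95% interval 0.35 to 0.79, standard error 0.10, edgeR adjusted p = 0.00080). The ratio of SLC1A4 to SLC1A5 per exon length was 0.113 and 0.120 with DMSO and 0.109 and 0.122 with SGSS05-NS, so the ranges of the conditions overlapped. The call of SLC1A5 held with every library left out and under every other setting tried. That of SLC1A4 did not: its adjusted p was 0.0035 without DMSO replicate 1, 0.0020 without SGSS05-NS replicate 2 and 0.0013 with counts that ignore strand.

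SLC38A1 (SNAT1, ENSG00000111371.11, from 46576846 to 46663800) and SLC38A2 (SNAT2, ENSG00000134294.9, from 46751971 to 46766556) import glutamine and other small neutral amino acids with sodium. Both lie on the minus strand of chromosome 12, with 88170 bases between them. SLC38A2, which is known to be induced when amino acids are scarce, had 344 and 392 CPM with DMSO and 487 and 501 CPM with SGSS05-NS. Its log2 fold change of 0.42 (95% interval 0.21 to 0.64, standard error 0.10, edgeR adjusted p = 0.0044) did not pass the threshold of 0.001, although both treated libraries were above both DMSO libraries. SLC38A1 had 421 and 476 CPM with DMSO and 371 and 358 CPM with SGSS05-NS, a log2 fold change of -0.30 (95% interval -0.51 to -0.09, standard error 0.10, edgeR adjusted p = 0.025), and also missed the threshold. Both its treated libraries were below both DMSO libraries, as for 36.9% of all genes tested. The intervals of this pair lie on opposite sides of 0. The ratio of SLC38A1 to SLC38A2 per exon length was 0.796 and 0.787 with DMSO and 0.495 and 0.465 with SGSS05-NS. With 2 libraries against 2, an exact permutation test of this ratio cannot give a two-sided p below 0.333. With genes of low counts kept, the adjusted p of SLC38A2 was 0.00012. In that fit 2034 genes were higher and 2570 lower, against 1049 and 1341 in the main fit. The likelihood ratio test, DESeq2 and limma voom did not call SLC38A2 (adjusted p = 0.00101, 0.00106 and 0.0029). With 1 library left out, the log2 fold change was between 0.32 and 0.50 for SLC38A2 and between -0.39 and -0.23 for SLC38A1.

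SLC7A1 and SLC7A3 (CAT1 and CAT3) carry cationic amino acids such as arginine and lysine and need no heavy chain. SLC7A1 (ENSG00000139514.8, chromosome 13 from 30083551 to 30169825, minus strand) had 124 and 163 CPM with DMSO and 159 and 138 CPM with SGSS05-NS. The treated libraries lay between the DMSO libraries, and the log2 fold change was 0.05 (edgeR adjusted p = 0.79, standard error 0.13). Its 95% interval of -0.23 to 0.32 leaves room for a change of up to 1.25-fold, and the sign turned negative without DMSO replicate 1 (-0.15) and without SGSS05-NS replicate 1 (-0.07). SLC7A3 (ENSG00000165349.7, chromosome X from 70145429 to 70150975, minus strand) was counted 8 and 7 times under DMSO and 3 and 2 times under the compound. Scaled for depth, the treated count was 0.353 times that of DMSO, with an exact binomial 95% interval from 0.100 to 1.02 that covers counting error only, so a difference was not detectable at this depth.

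SLC6A9 (GlyT1, ENSG00000196517.7, chromosome 1 from 44457172 to 44497139, minus strand), a glycine transporter, was also rare. Its fragments numbered 27 and 34 under DMSO and 49 and 42 under the compound, or 1.08 and 1.46 against 2.21 and 1.79 CPM. Both treated libraries were higher, but the log2 fold change of 0.66 (95% interval 0.04 to 1.27, standard error 0.28, edgeR adjusted p = 0.075) did not pass the threshold. Its exons overlap those of CCDC24 on the other strand, and 30.9% of the fragments counted on either strand of SLC6A9 lay on that other strand, against 2.74% or less for each of the other 9 genes. CCDC24 itself had a log2 fold change of -0.10 (adjusted p = 0.77 from edgeR's test).

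CPM does not allow for gene length, so levels were compared between genes as FPKM, here CPM divided by the exon length in kb. With DMSO, SLC38A2 was highest at 56.6 FPKM, followed by SLC38A1 at 44.8, SLC1A5 at 37.7, SLC7A1 at 18.7, SLC7A5 at 16.5, SLC3A2 at 10.1, SLC1A4 at 4.40, SLC7A11 at 0.602, SLC6A9 at 0.241 and SLC7A3 at 0.136 FPKM. Only SLC7A1 and SLC7A5 had library ranges that overlapped as neighbours in this order. With SGSS05-NS, SLC38A2 (75.9 FPKM) and SLC1A5 (56.5 FPKM) were followed by SLC3A2 (37.9 FPKM), SLC7A5 (37.2 FPKM) and SLC38A1 (36.4 FPKM), each of which overlapped with the next. SLC7A1 then stood at 19.3 FPKM and SLC7A11 at 4.21 FPKM, just under SLC1A4 at 6.52 FPKM. The place of SLC3A2 depends on the length used: its exons together span 6392 bases and its longest transcript 2843 bases, which gives 22.7 FPKM with DMSO and 85.3 FPKM with SGSS05-NS.

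**Figure D3:**
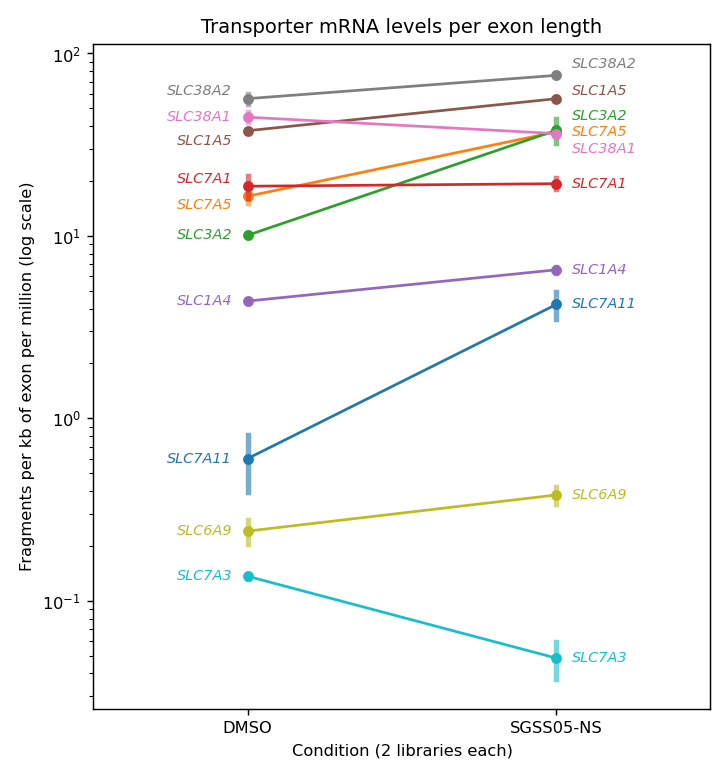
Level of each transporter gene per exon length (log axis) with DMSO and SGSS05-NS. Points are means of 2 libraries and thick bars their range. With all exons together as length, SLC3A2 and SLC7A5 cross SLC7A1 and reach SLC38A1, although SLC7A5 and SLC7A1 overlap with DMSO. With the longest transcript as length, SLC3A2 is above SLC7A1 already with DMSO (22.7 against 19.6 FPKM). SLC7A11 moves from 0.602 to 4.21 FPKM.

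SLC3A2 pairs with 6 light chains, and their makeup was followed as levels per exon length. SLC7A5, SLC7A6 and SLC7A11 were the light chains with appreciable counts. SLC7A8 had 0 fragments in all 4 libraries, SLC7A10 at most 3 and SLC7A7 at most 9. SLC7A5 made up 70.4% and 68.7% of the light chain level with DMSO and 77.1% and 80.4% with SGSS05-NS. SLC7A11 made up 1.83% and 3.11% with DMSO and 10.5% and 7.39% with SGSS05-NS. SLC7A6, a light chain that exchanges cationic for neutral amino acids, made up 27.7% and 28.2% with DMSO and 12.3% and 12.0% with SGSS05-NS. The SLC7A6 level itself was 50.4 ± 7.7 CPM with DMSO and 43.5 ± 0.30 CPM with SGSS05-NS, a log2 fold change of -0.21 (adjusted p = 0.15 from edgeR's test). The shares of SLC7A5 and SLC7A11 were thus higher, and that of SLC7A6 lower, in both treated libraries, with no overlap.

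Set against the heavy chain, all light chains together were 2.07 and 2.66 times the SLC3A2 level with DMSO and 1.46 and 1.09 times with SGSS05-NS. The ratio of SLC7A5 to SLC3A2 was 1.45 and 1.83 with DMSO and 1.12 and 0.875 with SGSS05-NS, so both treated libraries had a lower ratio than both DMSO libraries. The ratio of SLC7A11 to SLC3A2 was 0.0379 and 0.0828 with DMSO and 0.152 and 0.0803 with SGSS05-NS, and these ranges overlapped. The ratios themselves depend on the length chosen for SLC3A2, while their order between libraries does not.

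**Figure D4:**
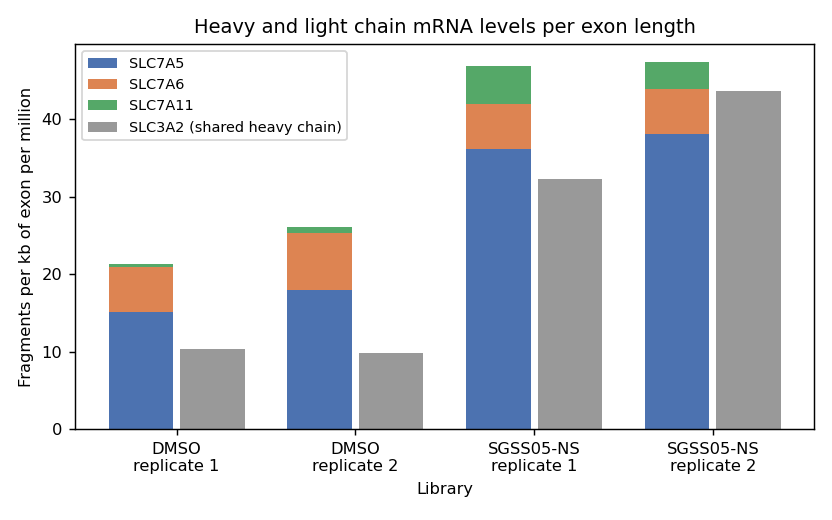
Level per exon length of the light chains SLC7A5, SLC7A6 and SLC7A11 (stacked) and of the heavy chain SLC3A2 (grey) in each library. The grey bars stand at 10.4 and 9.81 FPKM with DMSO and at 32.3 and 43.6 FPKM with SGSS05-NS, and the ratio of stack to grey bar is lower in both treated libraries (1.46 and 1.09) than in both DMSO libraries (2.07 and 2.66).

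None of the other amino acid transporters listed here as cell-surface was called higher. Of 32 listed, 12 had enough counts, and 0 were higher and 3 lower at an adjusted p under 0.001 in edgeR's quasi-likelihood test. That is 25% called, against 14.5% of all genes tested, with a median log2 fold change of -0.42. At an unadjusted p under 0.05, 2 were higher and 6 lower, while 46.3% of all genes tested passed even an adjusted p under 0.05. The likelihood ratio test called 1 higher and 5 lower, DESeq2 0 and 3, and limma voom 0 and 1. Of all 16468 genes, the likelihood ratio test called more than edgeR's main test, 2022 higher and 2267 lower. SLC1A2, a glutamate transporter, fell from 7.99 ± 0.87 to 3.70 ± 0.78 CPM (log2 fold change -1.10, adjusted p = 0.00081). SLC6A6, the taurine transporter, fell from 75.1 ± 7.6 to 50.7 ± 3.0 CPM (log2 fold change -0.57, adjusted p = 0.00091). SLC38A10 fell from 68.1 ± 2.0 to 47.3 ± 2.4 CPM (log2 fold change -0.53, adjusted p = 0.00086). These calls are near the threshold, and all 3 were lost when libraries were scaled by size only (adjusted p = 0.0014 for SLC1A2, 0.0030 for SLC6A6 and 0.0029 for SLC38A10). The call of SLC1A2 was lost without SGSS05-NS replicate 1 (adjusted p = 0.0021), and those of SLC6A6 and SLC38A10 without DMSO replicate 2 (0.0040 and 0.0020) or without SGSS05-NS replicate 2 (0.0021 and 0.0023).

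The transporters listed as acting inside the cell gave 1 call. Of 14 genes for lysosomal and vesicular transporters, 10 were tested and 0 were called by edgeR's quasi-likelihood test. At an unadjusted p under 0.05, 3 were higher and 1 lower, while 46.3% of all genes tested passed even an adjusted p under 0.05. The likelihood ratio test called 1 higher and 1 lower, DESeq2 1 higher and limma voom 0. Their smallest p-value was that of SLC66A1, a lysosomal exporter of cationic amino acids, with a log2 fold change of 0.70 and an adjusted p of 0.0014. SLC36A4 (-0.43, adjusted p = 0.0042) and SLC38A7 (0.38, adjusted p = 0.028) followed. Of 11 mitochondrial carriers, 10 were tested and 1 was called, or 10% against 14.5% of all genes tested. That gene was SLC25A13, a carrier that exchanges aspartate for glutamate. It fell from 162 ± 0.98 to 77.4 ± 2.7 CPM, a log2 fold change of -1.06 (adjusted p = 4.4e-06 from edgeR's test). SLC25A38, a glycine carrier, had a log2 fold change of 0.53 (adjusted p = 0.0012) and was called higher by the likelihood ratio test (3.3e-05) and DESeq2 (0.00071) but not by limma voom (0.0015), and SLC25A29 one of 0.39 (adjusted p = 0.013).

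Of 18 genes that regulate such transporters, all of them tested, 8 rose and 3 fell in edgeR's quasi-likelihood test. That is 61.1% called, against 14.5% of all genes tested, in a list chosen with earlier results of these data known. The likelihood ratio test called 11 higher and 3 lower, DESeq2 9 and 3, and limma voom 8 and 3. Of all 16468 genes, these tests called 2022 higher and 2267 lower, 1126 and 1576, and 1005 and 1306. DDIT3 (CHOP), a transcription factor of the stress response, rose from 2.79 ± 0.053 to 68.1 ± 14 CPM (log2 fold change 4.61, adjusted p = 5.2e-09), and ATF3 from 3.89 ± 1.0 to 83.4 ± 28 CPM (log2 fold change 4.43, adjusted p = 1.3e-07). TRIB3, a pseudokinase that dampens ATF4, had a log2 fold change of 1.52 (adjusted p = 3.9e-07). The mRNA of ATF4 itself, a factor controlled mainly at translation, rose from 141 ± 4.7 to 228 ± 21 CPM (log2 fold change 0.69, adjusted p = 0.00017). NFE2L2, the gene of NRF2, had a log2 fold change of 0.71 that missed the threshold (adjusted p = 0.0011). The likelihood ratio test and DESeq2 called it (6.8e-06 and 7.9e-05), but limma voom did not (0.0016). With any single library left out, its log2 fold change was between 0.48 and 0.89.

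The MYC genes moved the other way. MYC fell from 172 ± 3.8 to 80.3 ± 18 CPM (log2 fold change -1.09, adjusted p = 4.6e-05 from edgeR's test). MYCN, which was rare in this line, fell from 6.49 ± 0.39 to 2.39 ± 0.58 CPM (log2 fold change -1.43, adjusted p = 0.00023). The third gene that fell was EIF2AK4 (GCN2), the kinase that senses uncharged tRNA, with a log2 fold change of -0.63 (adjusted p = 0.00022).

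Genes that use the imported amino acids were next. Of 17 genes of glutathione and glutamine metabolism, all tested, 5 rose and 0 fell in edgeR's quasi-likelihood test. By that test 29.4% of the list was called, against 14.5% of all genes tested. At an unadjusted p under 0.05, 11 were higher and 0 lower. Of all genes tested, 46.3% passed an adjusted p under 0.05, so at least that share passed unadjusted. No gene of this list was lower with the likelihood ratio test, DESeq2 or limma voom either. GCLM, the modifier subunit of the first enzyme of glutathione synthesis, rose from 16.4 ± 1.0 to 69.7 ± 9.7 CPM (log2 fold change 2.09, adjusted p = 2.3e-07). Its catalytic subunit GCLC had a log2 fold change of 0.68 (adjusted p = 0.00016), and TXNRD1, thioredoxin reductase, one of 0.66 (adjusted p = 0.00046). CTH, which makes cysteine from cystathionine, rose by 1.43 on the log2 scale (adjusted p = 2.8e-05). CHAC1, which breaks glutathione down, rose by 2.15 (adjusted p = 9.9e-05), a call lost with DESeq2 (adjusted p = 0.0042). With 1 library left out, its rise was between 3.09-fold (without DMSO replicate 1) and 7.41-fold (without DMSO replicate 2).

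Of 21 genes through which mTORC1 senses amino acids, 20 were tested, 2 rose and 1 fell. That is 15% called, near the 14.5% of all genes tested. The likelihood ratio test, which called 2022 higher and 2267 lower of all 16468 genes, called 3 higher and 2 lower here. DESeq2 called 2 and 2, and limma voom 2 and 1. RPTOR, the subunit that defines mTORC1, fell from 89.2 ± 2.7 to 27.9 ± 2.6 CPM (log2 fold change -1.67, adjusted p = 3.2e-07). FLCN and RRAGC, which act at the lysosome in this pathway, had log2 fold changes of 0.98 (adjusted p = 5.9e-05) and 0.97 (adjusted p = 0.00010). Of 8 genes whose proteins modify or stabilize transporters, 7 were tested and 1 was called, or 14.3%, also near the share of all genes. NEDD4L, a ubiquitin ligase of membrane transporters, fell from 26.2 ± 2.4 to 11.6 ± 2.2 CPM (log2 fold change -1.17, adjusted p = 6.7e-05). SGK1, a kinase that restrains NEDD4L, had a log2 fold change of -0.46 (adjusted p = 0.010), and RNF185 one of 0.31 (adjusted p = 0.022). Adjusted p-values in this and the preceding paragraphs are from edgeR's quasi-likelihood test.

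The genes whose profile over the 4 libraries lay nearest to that of SLC7A11, by Euclidean distance of centred log2 CPM values, were FAM131B, RELB and TNFRSF10A. A prior count was added before the logarithm, which shrinks differences at low counts. In edgeR's fit their log2 fold changes were 3.65, 2.86 and 3.32, against 2.81 for SLC7A11. The call of FAM131B was lost with DESeq2 (adjusted p = 0.00101). RELB, an NF-κB subunit, was counted 21 and 33 times under DMSO against 193 and 178 under the compound. TNFRSF10A, a TRAIL receptor, was counted 3 and 10 times against 71 and 54, and FAM131B 1 and 3 times against 27 and 23. In all 3, as in SLC7A11, DMSO replicate 2 was the higher control and SGSS05-NS replicate 1 the higher treated library by CPM. The genes were chosen by these same 4 values, so the shared pattern follows from the choice and is no separate result.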

How the data were processed

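Per the labels, total RNA of SY5Y cells was used for 4 libraries, 2 for each condition. Per the labels and the study's methods, the authors used Trimmomatic 0.30 for trimming and STAR 2.4.2a for alignment on hg19 (GRCh37). They deposited STAR's raw gene counts for each library, neither normalized nor pooled, in which multimapping pairs count for no gene. The labels name an Illumina TruSeq RNA kit, the methods a stranded kit that depletes rRNA. The reverse-strand counts were used, since the other strand held between 4.64% and 5.05% of gene fragments. Replicates differed beyond sampling noise (chi-square divided by its degrees of freedom was 8.76 for DMSO and 11.8 for SGSS05-NS).

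Symbols, positions and exon lengths came from GENCODE release 44 on GRCh37 by identifier (55538 of 57820 matched; SLC6A14, CASTOR2 and PECAM1 of the lists did not). The conditions were compared in R 4.3.3 with edgeR 4.0.16 (filterByExpr, TMM, quasi-likelihood test, Benjamini-Hochberg adjustment over 16468 genes, threshold 0.001). The standard error is the size of the log2 fold change divided by the square root of F. FPKM are TMM-scaled CPM per kb of merged exons. Alternatives were the likelihood ratio test, DESeq2 1.42.0, limma 3.58.1 voom, other scalings, filters, strand and threshold, the replicate number as a block, and each library left out. The fit was tested on simulated data. The members and lists were chosen with earlier results of these data known. Named genes are the members, ATF4, NFE2L2, MYC, MYCN, KMT5A, the 3 smallest p-values of each list and the 3 genes nearest to SLC7A11; DBH, HAND2, GATA3, ISL1, TH, PTPRC, CD3E, CCDC24, SLC7A6, SLC7A7, SLC7A8, SLC7A10, EIF2AK4, GCLC and TXNRD1 lie outside this rule and were named after their values were seen. Some genes that the rule names are not reported here.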

Additional observations from a re-analysis of the deposited data

Results flagged for a closer look

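Fragments with no annotated exon on the strand counted made up a mean of 15.7% of all fragments with SGSS05-NS, above the 12.4% of the DMSO libraries. They enter none of the counts used, and they include fragments on the other strand of a gene. Fragments on the strand opposite to the 10 transporter genes summed to a mean of 4.75 CPM with SGSS05-NS, above 3.90 CPM with DMSO, and came mostly from SLC38A1, SLC1A4, SLC1A5 and SLC6A9. Groups of 2 libraries are too small for a test of single libraries that stand apart.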

How the results depend on the processing

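With each library left out in turn, where edgeR assumes that the lone library varies like the other condition, the transporter genes called higher ranged from 4 to 5 and those called lower from 0 to 0, the genes of the pathway lists from 17 to 19 higher and from 7 to 9 lower, and all genes from 1037 to 1279 higher and from 1322 to 1649 lower. The log2 fold change of SLC7A1 ranged from -0.15 to 0.24 and was negative without DMSO replicate 1 (-0.15) and without SGSS05-NS replicate 1 (-0.07). Over all alternatives, the values of single named genes kept direction and side of the threshold in 561 cases, passed it newly in 43, lost it in 21 and changed sign in 2, both of SLC7A1. Of the 94 tested genes on the 7 pathway lists, 15 were higher and 9 lower. These became 26 higher with the likelihood ratio test, 25 and 15 with no filter on low counts, 24 higher with the replicate block, and 34 and 20 at an adjusted p under 0.05. All genes, 1049 higher and 1341 lower, became 2022 and 2267, 2034 and 2570, 1759 higher, and 3728 and 3903 under the same 4 settings. The number of transporter genes lower became 1 at 0.05 (SLC38A1), where 46.3% of all genes passed. The replicate numbers come from no stated pairing, and deviations of same-numbered libraries correlated at 0.05 across genes, so the block has no basis beyond the number; it called 5 transporter genes higher. With the longest transcript as length, chosen after seeing the data, the ratio of SLC7A5 to SLC3A2 became 0.764 (DMSO) and 0.465 (SGSS05-NS), from 1.64 and 0.999, and that of SLC7A11 to SLC3A2 became 0.0268 and 0.0517, from 0.0603 and 0.116; 43 of 45 pairs of transporter genes kept their order with DMSO. Depth limits SLC7A3 and SLC6A9 most.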

Other observations

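Some other transporters of the cell surface missed the threshold of 0.001 with sizable log2 fold changes, and are named after their values were seen. SLC7A2, a further carrier of cationic amino acids, went from 20.3 ± 0.12 to 13.1 ± 0.85 CPM (log2 fold change -0.63, edgeR adjusted p = 0.0015). SLC16A10, a carrier of aromatic amino acids, went from 13.1 ± 0.39 to 8.32 ± 0.53 CPM (log2 fold change -0.66, adjusted p = 0.0027). SLC38A3, a glutamine transporter of the same family as SLC38A1 and SLC38A2, went from 1.74 ± 0.15 to 3.62 ± 0.53 CPM (log2 fold change 1.06, adjusted p = 0.0034).

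Among enzymes of glutamine and asparagine metabolism, ASNS, asparagine synthetase, went from 150 ± 23 to 219 ± 23 CPM (log2 fold change 0.55, adjusted p = 0.0027), GLUL, glutamine synthetase, from 275 ± 0.40 to 391 ± 40 CPM (0.51, adjusted p = 0.0016), and GLS2, a glutaminase gene, from 1.14 ± 0.087 to 2.93 ± 0.83 CPM (1.36, adjusted p = 0.0023). None of them passed 0.001.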
